A study of Mus musculus with 15 samples.

Results

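Mouse embryonic stem cells (ES cells) grown in gel with an inhibitor of Aurora kinase A alone, written as Aurka inh, were compared with ES cells kept in 2iLif. The comparison took the 3 libraries of each condition by their labels, 6 of 15 libraries in the series, and ran over every gene with enough counts, 15223 of 49585. All libraries came from WT cells of E14, an established mouse ES cell line. Before seeding, the cells grew on gelatin with PD0325901 (0.4 µM), an inhibitor of the kinase MEK, CHIR99021 (3 µM), an inhibitor of GSK3, and the cytokine Lif (4 ng/ml). They were then seeded in growth factor reduced Matrigel, a basement membrane gel, at a density of 2000 cells per µl under N2B27 medium. The control gels received 2iLif in that medium, and the compared gels received Aurka inh. The other 3 conditions, used here only for reference, were FGF2/Activin, PD032, and PD032+ Aurka inh, called the combination below. The labels name no Aurora compound, give no inhibitor dose or treatment time, and do not spell out PD032. No condition had N2B27 without a supplement. The label Aurka inh names none of the 3 components of 2iLif, and their absence from that medium is assumed from it. Loss of MEK inhibition, of GSK3 inhibition and of Lif, and gain of Aurora A inhibition, therefore cannot be told apart in this comparison.

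ES cells held in 2iLif stay in the naive state, which resembles the early epiblast of the blastocyst and rests on transcription factors such as Klf4, Nanog and Esrrb. Without these components ES cells leave that state through a formative one marked by Otx2 and the DNA methyltransferases of new methylation. MEK relays FGF signals to the kinase ERK, GSK3 marks β-catenin for destruction and so restrains Wnt targets, and Lif acts through STAT3. Aurora A is a mitotic kinase that ripens centrosomes, builds the spindle and activates Plk1 with its cofactor Bora. The series title names the question as how mitotic kinases regulate ERK signalling in development.

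Total counts were 15758093, 15199507 and 15818758 in the 2iLif libraries and 21691325, 16010904 and 18949791 in the Aurka inh libraries. Levels below are CPM, counts scaled to library totals, in the order of replicates 1, 2 and 3. Fold changes are log2 of Aurka inh over 2iLif from edgeR, with their standard error (SE), and a gene passed at an adjusted p under 0.05. Replicates varied more in Aurka inh, with a biological coefficient of variation of 11%, than in 2iLif, with 4.53%. Nothing in the labels says that replicates came from separate cultures, so the p-values cover the spread among the libraries only, and that spread may be technical. The file names of 2iLif follow one style and those of Aurka inh another, and no group has both. Any batch difference behind these styles cannot be told apart from the medium in the comparison with 2iLif, so values against PD032 and the combination, which share the style of Aurka inh, are given for selected genes of most groups. Lower expression per cell and fewer cells expressing a gene cannot be told apart in bulk RNA either.

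Of the 15223 genes tested, 4398 (28.9%) were higher and 4490 (29.5%) lower in Aurka inh, 58.4% in all. Many of these differences were small: 1726 of the higher and 2207 of the lower genes changed by under 1.5-fold. At least 2-fold changes were seen in 1936 higher genes (12.7%) and 1375 lower genes (9.03%), and at least 4-fold changes in 882 and 545. The median log2 fold change over all genes was 0.0137. Libraries of both groups did not overlap in 9544 genes (62.7%). Of the protein-coding genes described below, Otx2 (ENSMUSG00000021848) lies on chromosome 14 from 48657677 to 48673819, Socs3 (ENSMUSG00000053113) on chromosome 11 from 117966079 to 117970047 and Dusp4 (ENSMUSG00000031530) on chromosome 8 from 34807297 to 34819894, in mm10 by GENCODE M21. Lama1 (ENSMUSG00000032796) spans 67697259 to 67822647 on chromosome 17 and Peg10 (ENSMUSG00000092035) 4747306 to 4760517 on chromosome 6. Values are counts over whole genes.

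**Figure D1:**
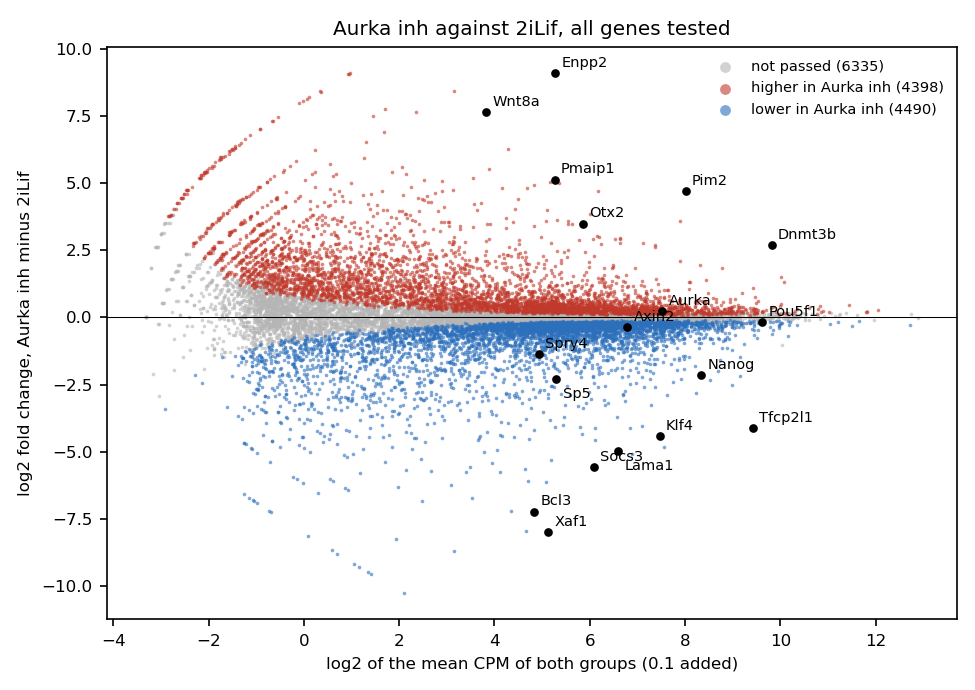
Log2 fold change of Aurka inh over 2iLif (y axis) against mean log2 CPM (x axis) for the 15223 genes tested, 1 point per gene. Genes that passed (4398 higher, 4490 lower) are coloured and spread over the whole range of levels.

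Naive pluripotency genes fell. Of 18 genes of the naive list, 16 were lower and 1 higher, with a median log2 fold change of -2.18, against 29.5% of all genes lower. Klf4, a naive transcription factor, had 336, 330 and 347 CPM in 2iLif and 17.1, 16.3 and 13.6 CPM in Aurka inh. The 2 groups lay far apart with little spread within either, and the log2 fold change was -4.43 (SE 0.09, edgeR adjusted p = 6.2e-15). Tfcp2l1, a factor through which Lif maintains the naive state, went from 1320, 1340 and 1250 CPM to 78.7, 90.3 and 53.7 CPM, a log2 fold change of -4.14. Nanog was lowered less, from 517, 519 and 554 CPM to 112, 146 and 99.1 CPM, and Esrrb, an orphan nuclear receptor, from 837, 861 and 890 CPM to 152, 183 and 118 CPM. In Nanog, Esrrb and Tfcp2l1 replicate 2 of Aurka inh was the highest of its group, still far under every 2iLif library. Prdm14, a repressor of FGF signalling, and Gbx2, a homeobox factor, fell by 4.46 and 5.02 on the log2 scale. The member that rose was Dppa3, a maternal factor also active in germ cells, with a mean of 4.01 CPM in 2iLif and 13.5 CPM in Aurka inh. Nanog and Dppa3 have processed pseudogenes, and how shared reads were assigned is not known.

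Of all genes, 45.5% passed between Aurka inh and PD032 (19.7% higher and 25.8% lower in Aurka inh), 34.9% between Aurka inh and the combination (16.3% higher, 18.6% lower) and 55.1% between Aurka inh and FGF2/Activin (25% higher, 30.1% lower). Within the same naming style, Klf4 and Nanog in Aurka inh did not pass against PD032, with log2 differences of 0.13 (edgeR adjusted p = 0.29) and -0.03 (edgeR adjusted p = 0.84). Both were lower than in the combination, by -1.62 (edgeR adjusted p = 2.7e-09) and -1.7 (edgeR adjusted p = 8.2e-09). Other naive genes differed from this: Prdm14 was also lower than in PD032, by -1.86 (edgeR adjusted p = 3.1e-05), and so was Gbx2, by -1.22 (edgeR adjusted p = 0.0019). Mean levels of Klf4, Nanog, Esrrb, Tfcp2l1 and Prdm14 in the combination lay between those of Aurka inh and 2iLif, while Gbx2 in Aurka inh did not pass against the combination (log2 difference 0.47, edgeR adjusted p = 0.33).

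The shared core of the pluripotency network did not follow the naive genes as a set, although single members fell. Pou5f1, which encodes Oct4, had 810, 820 and 858 CPM in 2iLif and 674, 806 and 749 CPM in Aurka inh. The libraries did not overlap, yet the difference of -0.16 did not pass (SE 0.09, edgeR adjusted p = 0.13). It did pass without the filter on low counts (edgeR adjusted p = 0.013) and with replicate number as a block (edgeR adjusted p = 0.043). Sox2, its partner, had 518, 495 and 494 CPM against 239, 337 and 212 CPM and fell by 0.94 on the log2 scale (edgeR adjusted p = 3.1e-06). Utf1, a chromatin factor of pluripotent cells, rose from 148, 154 and 161 CPM to 397, 390 and 385 CPM. In all, 6 of the 10 core genes were higher and 2 lower, beside 28.9% and 29.5% of all genes. The other rising members were L1td1, Lin28a, Zfp281, Dppa2 and Dppa4, and Sall4 fell with Sox2 (log2 fold change -0.5, edgeR adjusted p = 7.2e-07). Their summed level was 3770 to 3910 CPM in 2iLif and 3980 to 4210 CPM in Aurka inh.

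Genes of the formative state rose. Of 16 listed, 15 were higher and none lower, with a median log2 fold change of 3.46, against 28.9% of all genes higher. Otx2, a homeobox factor that drives the exit from the naive state, had 9.23, 9.33 and 9.64 CPM in 2iLif and 103, 106 and 110 CPM in Aurka inh. The 3 libraries of each group were close together, and the log2 fold change was 3.5 (SE 0.05, edgeR adjusted p = 2.7e-16). Dnmt3b, which lays down new DNA methylation, went from 242, 246 and 237 CPM to 1660, 1430 and 1610 CPM, the largest gain in CPM of the genes that passed. Pou3f1, an octamer-binding factor of the epiblast, rose from 1.56, 1.35 and 0.716 CPM to 38.7, 25.7 and 38.1 CPM, Lef1, a nuclear partner of β-catenin, from 1.95, 1.56 and 1.82 CPM to 47.9, 62 and 54.2 CPM, and Grhl2, an epithelial enhancer factor, from 1.43, 2.03 and 1.76 CPM to 55.3, 42.5 and 51.3 CPM. The kinase gene Pim2 rose from a mean of 19.1 CPM to 497 CPM. Cdh2, which encodes N-cadherin, was the member that did not pass (log2 fold change -0.07, edgeR adjusted p = 0.81).

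Fgf5, a growth factor of the epiblast and a usual mark of the formative state, was scarce in both conditions. It had 3 counts over the 2iLif libraries and 172 over those of Aurka inh, a ratio per total of 45.7 (95% interval 15.4 to 224, counting error only). Its levels in Aurka inh were 2.73, 1.2 and 4.84 CPM, spread more widely than those of Otx2. Otx2 itself was lower than in PD032 by -1.07 and higher than in the combination by 0.98, both within the naming style (edgeR adjusted p = 1.9e-11 and 2.9e-10). Fgf5 was lower than in PD032 by -2.65 (edgeR adjusted p = 1.5e-07) and Grhl2 was higher, by 0.88 (edgeR adjusted p = 1.5e-06). Dnmt3b differed from PD032 by -0.11, which did not pass (edgeR adjusted p = 0.21) but did when the 3 inhibitor groups were fitted with same-numbered libraries blocked, called the replicate block (log2 difference -0.1, edgeR adjusted p = 0.0033). Against the condition with PD032 alone the formative genes therefore lay on both sides.

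**Figure D2:**
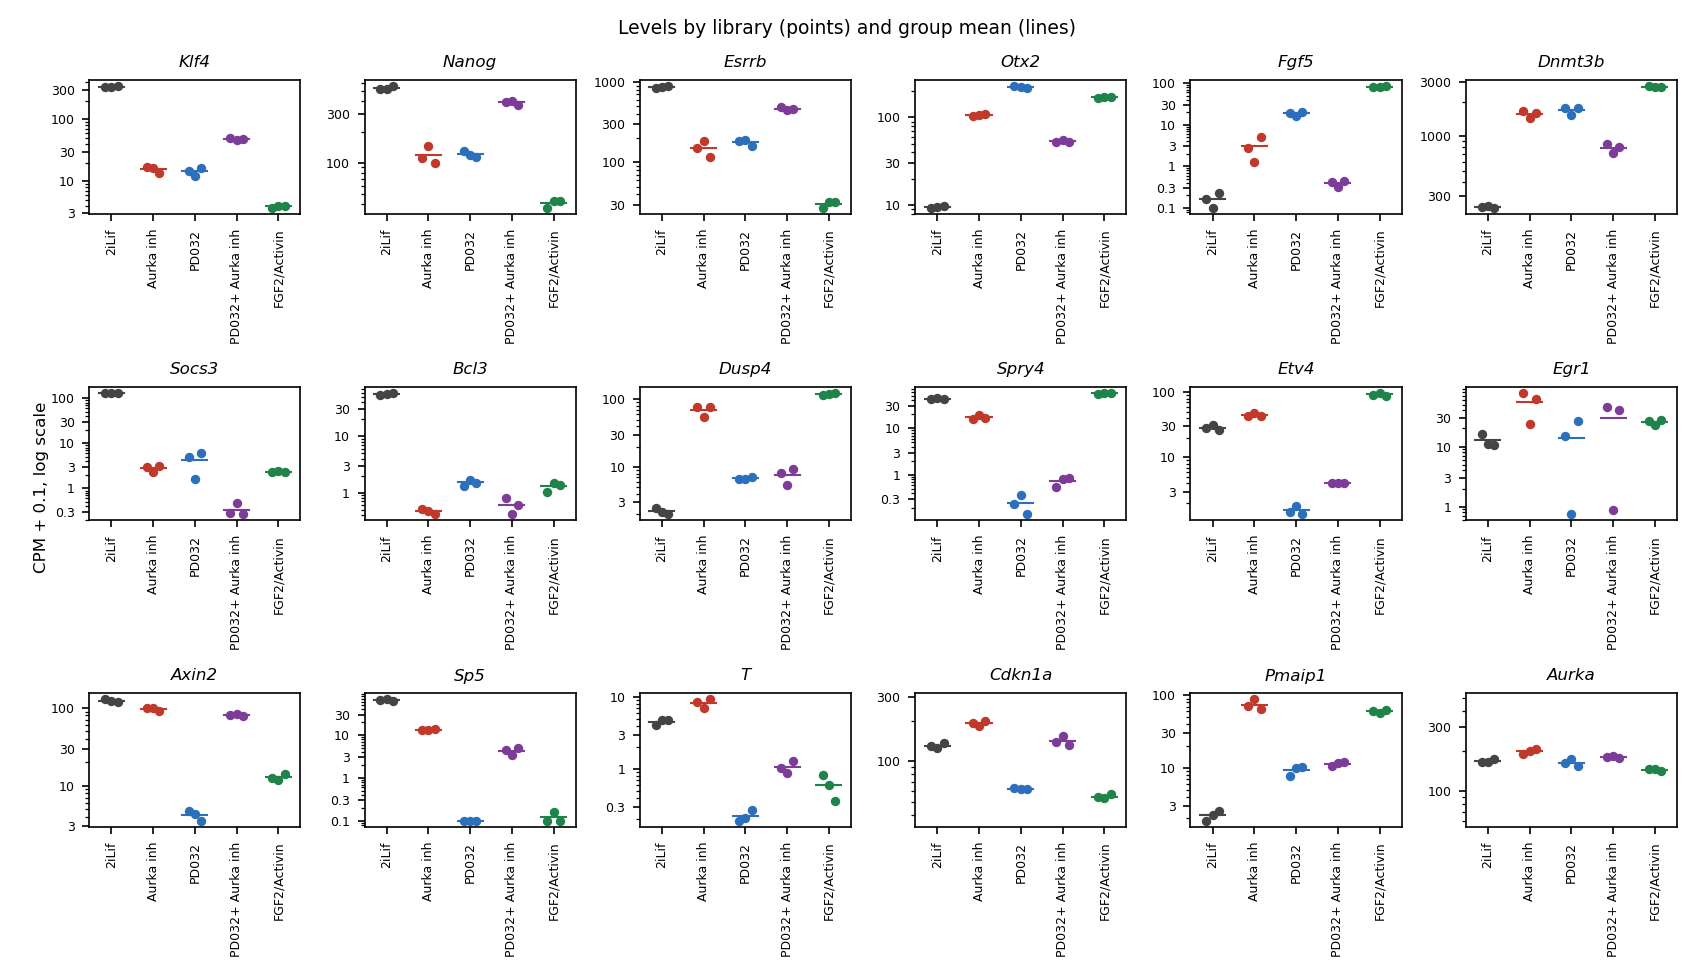
CPM plus 0.1 on a log axis for 18 genes in all 5 conditions, with 1 point per library and a line at each group mean. Klf4, Nanog, Esrrb, Socs3 and Bcl3 sit lower in Aurka inh than in 2iLif, Otx2, Dnmt3b, Dusp4 and Pmaip1 sit higher, and Axin2 is slightly lower in Aurka inh than in 2iLif and far lower in PD032.

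Transcripts that respond to ERK moved in both directions, although 2iLif holds a MEK inhibitor and the label Aurka inh names none. Of 20 tested genes of the ERK list, 11 were higher and 5 lower, beside 28.9% and 29.5% of all genes. Dusp4, a phosphatase that removes phosphate from ERK in the nucleus, had the largest rise, from 2.4, 2.03 and 1.89 CPM to 78.2, 54.8 and 76.4 CPM (log2 fold change 5.05, SE 0.2, edgeR adjusted p = 4.9e-12). Dusp6, the phosphatase of ERK in the cytoplasm, rose only from 32.3, 33.7 and 33 CPM to 44.2, 47.5 and 38.8 CPM (log2 fold change 0.4, SE 0.08, edgeR adjusted p = 0.0007). Etv4, a transcription factor induced by FGF, had 28.1, 31 and 26.7 CPM in 2iLif and 43.5, 48.7 and 43.6 CPM in Aurka inh, a log2 fold change of 0.66. Neither Dusp6 nor Etv4 overlapped between groups, but both changes were far smaller than that of Dusp4.

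The Sprouty genes, which encode feedback inhibitors upstream of ERK, did not move together. Spry4 fell from 43.5, 44.2 and 43 CPM to 15.7, 19.4 and 16.2 CPM (log2 fold change -1.36, SE 0.1, edgeR adjusted p = 8.3e-09). Spry2 fell from a mean of 106 CPM to 63.8 CPM, while Spry1 rose from 9.58 CPM to 19.5 CPM. Il17rd, another feedback inhibitor of FGF signalling, fell with Spry4 and Spry2. Among the immediate early genes Egr1 had 16.1, 11.1 and 10.5 CPM in 2iLif and 79, 24 and 61.7 CPM in Aurka inh. The groups did not overlap, but replicate 2 was much the lowest Aurka inh library, and the rise of 2.14 (SE 0.82) was only just past the threshold (edgeR adjusted p = 0.036). Replicate 2 was also lowest in PD032, at 0.644 CPM, and in the combination, at 0.783 CPM. The call was lost in DESeq2 (adjusted p = 0.093), in limma-voom (adjusted p = 0.054) and when any 1 of the 6 libraries other than replicate 2 of Aurka inh was left out (edgeR adjusted p = 0.065 to 0.1). Fos did not pass (log2 fold change -0.51, edgeR adjusted p = 0.58), and Myc and Ier2 fell by 0.53 and 0.35 on the log2 scale.

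Several of these genes differed strongly between the inhibitor groups, and others did not. In PD032 Etv4 and Spry4 were lower than in Aurka inh, with log2 differences of 4.98 and 6.85 for Aurka inh minus PD032 (edgeR adjusted p = 1.3e-14 and 1.1e-12). In the combination they were lower as well, by 3.51 and 4.7 on the same scale (edgeR adjusted p = 1e-12 and 1.6e-11). Dusp4 was 3.38 above PD032 and 3.19 above the combination on the log2 scale (edgeR adjusted p = 8.8e-11 and 5.7e-10). Dusp5, a phosphatase of the same family, went the other way against PD032, by -0.8 (edgeR adjusted p = 0.00078). Egr1 did not pass against PD032 or the combination (edgeR adjusted p = 0.052 and 0.38), but did against both with the replicate block (edgeR adjusted p = 3.5e-05 and 0.0064). These contrasts share the Aurka inh libraries with the comparison with 2iLif and are given side by side only. The 2iLif libraries also lay above those of PD032 in Spry4, Etv4 and Dusp6, a comparison across naming styles. PD032 minus 2iLif was -8.2, -4.32 and -1.47 on the log2 scale, but 1.67 in Dusp4 and 2.32 in Dusp5. For Spry4, Etv4 and Dusp6, 2iLif was thus not the condition with the lowest level.

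Wnt targets split. GSK3 was inhibited in 2iLif, and of 14 tested Wnt targets 6 were lower and 7 higher in Aurka inh, beside 29.5% and 28.9% of all genes. Their median on the log2 scale was 0.01 and their mean -0.07. When only genes with a mean CPM of at least 1 were tested, the median was 0.44. Axin2, a scaffold of the complex that destroys β-catenin and a direct feedback target, had 130, 124 and 118 CPM in 2iLif and 101, 99.3 and 91.9 CPM in Aurka inh. The groups did not overlap, and the fall was 0.35 on the log2 scale, given as -0.35 (SE 0.07, edgeR adjusted p = 0.0005). Its levels were 4.66, 4.24 and 3.43 CPM in PD032, 12.5, 11.6 and 14.2 CPM in FGF2/Activin and 79.9, 82.4 and 77.9 CPM in the combination. Axin2 in Aurka inh was thus 4.57 above PD032 and 0.28 above the combination on the log2 scale (edgeR adjusted p = 8.4e-15 and 0.0059). In both conditions that received Aurka inh, the Axin2 libraries lay below those of 2iLif and far above those of PD032 alone.

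Sp5, a transcription factor gene switched on by β-catenin, fell further, from 64.3, 68.9 and 62.8 CPM to 12.8, 12.8 and 14.1 CPM (log2 fold change -2.3, SE 0.11, edgeR adjusted p = 2.4e-10). Even so, it had no count in the 3 PD032 libraries and 4.47, 3.39 and 4.79 CPM in the combination. T, also called Brachyury, the streak factor and another target of Wnt, rose from 3.96, 4.67 and 4.75 CPM to 8.5, 6.86 and 9.26 CPM (log2 fold change 0.88, SE 0.17, edgeR adjusted p = 0.00041). In T the Aurka inh libraries lay above all those of 2iLif, and the difference from PD032 was 5.96 and from the combination 3.06 on the log2 scale (edgeR adjusted p = 1.7e-10 and 2.2e-08). Notum, an enzyme that inactivates Wnt proteins, and Cdx1, a caudal homeobox factor, fell by 1.96 and 4.48 on the log2 scale. Nkd1, Nkd2 and Sp8 rose by 2.35, 2.22 and 2.22, from means of 1.01, 0.416 and 3.51 CPM. The ligand gene Wnt3 had 2 counts in 2iLif and 125 in Aurka inh, a ratio per total of 49.8 (95% interval 13.5 to 416). Lgr5, which was not tested, had 0 counts in 2iLif and 21 in Aurka inh, at least 5.58-fold higher against a limit of 3 counts over the group.

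The promoters of Sp5 and T are shown because both genes were at 0 or near it in PD032 and higher in Aurka inh, and because both windows hold the 6 letters CTTTGA, which read as TCAAAG when found on the other strand, the core to which Tcf and Lef factors bind. The sequences are from RefSeq, GRCm38.p6, the 250 bases before the gene start on the plus strand at chr2:70474673-70474922 for Sp5 and chr17:8434173-8434422 for T, 5′ to 3′, with matches in capitals.
Sp5: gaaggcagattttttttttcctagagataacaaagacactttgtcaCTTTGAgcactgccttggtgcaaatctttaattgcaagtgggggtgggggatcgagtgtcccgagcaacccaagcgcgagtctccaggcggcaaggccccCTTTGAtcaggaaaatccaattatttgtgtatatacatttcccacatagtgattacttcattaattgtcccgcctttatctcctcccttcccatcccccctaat
T: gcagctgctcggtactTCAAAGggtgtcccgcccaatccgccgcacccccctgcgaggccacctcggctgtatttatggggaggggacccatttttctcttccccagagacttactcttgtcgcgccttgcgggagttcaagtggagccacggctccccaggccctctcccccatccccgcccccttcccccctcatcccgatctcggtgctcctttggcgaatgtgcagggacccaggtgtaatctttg

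The matches begin 204 and 104 bases before the start in Sp5 and 234 bases before it in T. Of 32851 promoter windows of this length, 13.8% held a match on either strand and 1.37% held 2 or more. Of the 16 Wnt list genes including T, 11 had a window in the table; some had several, and 5 of their 16 windows, from 5 genes, held a match. The Axin2 window, chr11:108920099-108920348, had none, which says only that these letters are not in those bases. A match describes the sequence and does not show binding.

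Genes of the Lif pathway fell. Of 11 tested, 9 were lower and 1 higher, beside 29.5% and 28.9% of all genes, with a median log2 fold change of -1.4. Socs3, which encodes a feedback inhibitor of STAT3 signalling, had 131, 133 and 133 CPM in 2iLif and 2.96, 2.2 and 3.07 CPM in Aurka inh (log2 fold change -5.57, SE 0.24, edgeR adjusted p = 1.7e-11). Bcl3, a nuclear IκB protein induced by STAT3, fell from 54.6, 55.5 and 59.7 CPM to 0.409, 0.378 and 0.312 CPM, a log2 fold change of -7.24. Both genes were low in all 3 Aurka inh libraries. Stat3 itself fell from 191, 185 and 184 CPM to 31.1, 25 and 28 CPM, and the receptor genes Lifr and Il6st by 0.89 and 0.92 on the log2 scale. Gadd45g, a growth arrest gene in the same list, rose from 0.845, 0.609 and 0.391 CPM to 15.6, 13.4 and 20.9 CPM. Socs3 did not pass against PD032 (log2 difference -0.61, edgeR adjusted p = 0.11; 0.043 with the replicate block), and Bcl3 was lower than in PD032 by -1.92 (edgeR adjusted p = 1.8e-05).

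Signals of the TGFβ family moved member by member. Nodal, the ligand that sustains the epiblast, rose from a mean of 68.5 CPM to 153 CPM, and its inhibitor Lefty1 from 0.39, 0.338 and 0.912 CPM to 14.1, 8.94 and 19.7 CPM (log2 fold change 4.7, SE 0.53, edgeR adjusted p = 1.3e-06). The other Lefty gene, Lefty2, fell from 9.16, 6.36 and 7.23 CPM to 3.41, 2.71 and 3.69 CPM (log2 fold change -1.2, SE 0.25, edgeR adjusted p = 0.00065). The co-receptor gene Tdgf1 fell from 429 CPM to 194 CPM and the inhibitory Smad7 by 2.22 on the log2 scale. Skil, a repressor of Smad activity, rose from 25.5, 25.8 and 24.2 CPM to 189, 138 and 192 CPM. Of 9 tested Nodal and Activin genes, 4 were higher and 3 lower, beside 28.9% and 29.5% of all genes. Of 7 BMP and Id genes, 5 were lower and none higher: Bmp4, a ligand, fell from 54.9, 54.3 and 52.7 CPM to 2.64, 4.34 and 2.03 CPM, and Id4, an inhibitor of bHLH factors, from 8.9, 8.45 and 8.4 CPM to 1.86, 2.45 and 1.09 CPM. Id3 and Bambi did not pass (edgeR adjusted p = 0.27 and 0.29). Within the naming style, Lefty1 was 2.59 above PD032 on the log2 scale (edgeR adjusted p = 2.6e-05), Skil did not pass against PD032 (log2 difference -0.06, edgeR adjusted p = 0.69), and Bmp4 was lower than in PD032 by -1.06 (edgeR adjusted p = 0.00042).

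**Figure D3:**
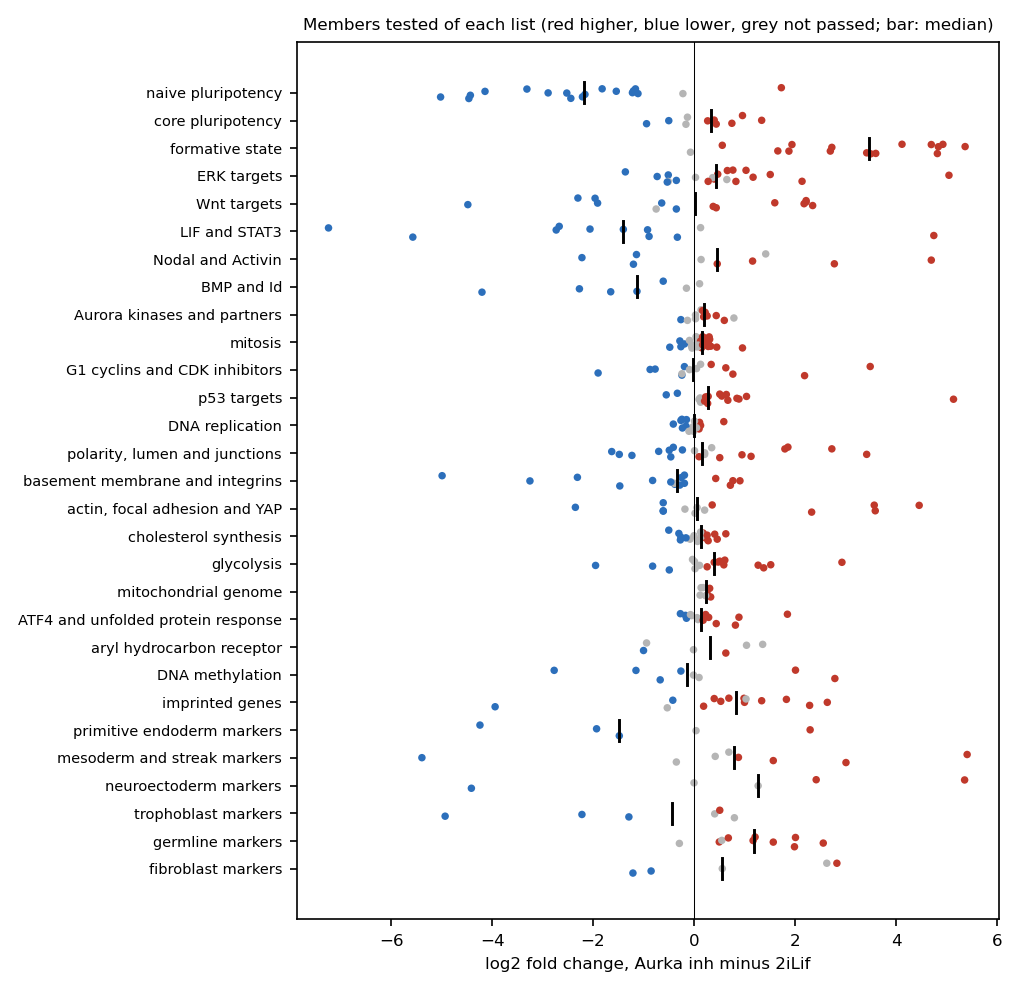
Log2 fold change of Aurka inh minus 2iLif (x axis) for each tested member of 29 gene lists, 1 point per gene, with a bar at the list median. Naive and Lif genes lie mostly left of 0, formative genes right of 0 (median 3.46), and mitosis and DNA replication genes lie near 0.

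Transcripts of Aurora A, its partners and the mitotic machinery changed little. Aurka itself, whose product is the named target of the inhibitor, had 166, 166 and 175 CPM in 2iLif and 190, 199 and 207 CPM in Aurka inh. The groups did not overlap, and the log2 fold change was 0.24 (SE 0.05, edgeR adjusted p = 0.00078). A transcript level does not report kinase activity, so this is no check of the inhibition. Plk1, the mitotic kinase activated by Aurora A, rose from 153, 151 and 155 CPM to 204, 212 and 208 CPM (log2 fold change 0.44, SE 0.04, edgeR adjusted p = 9.4e-08). Ajuba, a LIM protein that binds Aurora A, rose by 0.6 and Bora by 0.26, whereas Tpx2, its activator on the spindle, did not pass (log2 fold change 0.03, edgeR adjusted p = 0.61). Of 13 tested genes of this list, 7 were higher and 1, the centrosome gene Cep192, lower, beside 28.9% and 29.5% of all genes. Cep192 had 250, 244 and 227 CPM against 228, 174 and 198 CPM, the groups overlapped, and its call (edgeR adjusted p = 0.038) was lost when totals were scaled by library size alone (edgeR adjusted p = 0.1).

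Of 30 mitosis genes, 17 were higher and 4 lower, beside the same shares of all genes (28.9% and 29.5%), with a median log2 fold change of 0.15. With library size alone as the scaling, 2 were lower and the median was 0.2. The largest rises were in the securin gene Pttg1, from 17.3, 19.5 and 18.8 CPM to 27.2, 51.1 and 30.4 CPM, in Ube2c, a ubiquitin-conjugating enzyme of mitotic exit (log2 fold change 0.45), and in Bub1, a kinase of the spindle checkpoint (log2 fold change 0.33). In Pttg1 replicate 2 of Aurka inh stood well above the other 2. Anln, which encodes the contractile ring protein anillin, fell from 367, 361 and 349 CPM to 271, 237 and 263 CPM (log2 fold change -0.48, SE 0.06, edgeR adjusted p = 1.5e-06). Of 18 DNA replication genes, 4 were higher, 6 lower and 8 did not pass, with a median log2 fold change of 0. Tyms, an enzyme of nucleotide synthesis, fell by 0.41 on the log2 scale.

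The cyclins and inhibitors of G1 changed in both directions. Cyclin D2 (Ccnd2) rose from 3.38, 1.49 and 2.08 CPM to 30.3, 16.6 and 31.3 CPM, and cyclin D3 (Ccnd3) fell from 191, 198 and 204 CPM to 52.2, 56.5 and 50.8 CPM (log2 fold changes 3.49 and -1.9, edgeR adjusted p = 3.6e-08 and 1e-12). Their partner kinase gene Cdk4 fell by 0.19, and Cdk2, the kinase of S phase entry, by 0.87 on the log2 scale. Cdkn1c, an inhibitor of these kinases and an imprinted gene, rose from 2.14, 1.56 and 1.95 CPM to 8.96, 7.87 and 9.1 CPM. In all, 5 of 14 genes were higher and 5 lower, beside 28.9% and 29.5% of all genes. The list's median was -0.02 while its mean was 0.24 on the log2 scale. Ccnd2 was 0.85 above PD032 and Ccnd3 was lower than in PD032 by -0.85 (edgeR adjusted p = 0.0042 and 2.5e-08).

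Targets of p53, a factor activated by DNA damage and by failed mitosis, were mostly higher: 12 of 17 tested rose and 2 fell, against 28.9% and 29.5% of all genes, and the median log2 fold change was 0.28. Cdkn1a, the inhibitor p21 of the cell cycle, had 129, 126 and 137 CPM in 2iLif and 194, 183 and 198 CPM in Aurka inh (log2 fold change 0.55, SE 0.06, edgeR adjusted p = 4.4e-07). The BH3-only gene Pmaip1, which promotes apoptosis, rose from 1.75, 2.16 and 2.41 CPM to 70.4, 88.9 and 64.3 CPM (log2 fold change 5.14, SE 0.16, edgeR adjusted p = 3.5e-13). The change of Pmaip1 was far larger than that of any other gene in the list, followed by Plk2 with 1.04, Phlda3 with 0.89 and Bbc3 with 0.85. Mdm2, the ubiquitin ligase that degrades p53, had 134, 128 and 118 CPM against 134, 132 and 142 CPM and did not pass (log2 fold change 0.1, SE 0.05, edgeR adjusted p = 0.11). It did pass with library size alone as the scaling (edgeR adjusted p = 0.022), and reached 0.025 to 0.036 in 3 other settings. Btg2 and Perp fell by 0.33 and 0.55 on the log2 scale.

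Within the naming style, Cdkn1a in Aurka inh was 1.63 above PD032 and 0.44 above the combination on the log2 scale (edgeR adjusted p = 5.4e-12 and 1.8e-05). Pmaip1 was 3.01 above PD032 and 2.72 above the combination (edgeR adjusted p = 2e-11 and 2.4e-10). Aurka was 0.29 above PD032 and 0.14 above the combination (edgeR adjusted p = 0.00022 and 0.038), the latter lost when only the 9 inhibitor libraries were fitted (edgeR adjusted p = 0.063). Other p53 targets went the other way: Bbc3 and Mdm2 were lower than in PD032, by -0.32 and -0.27 (edgeR adjusted p = 0.0023 and 0.00057), and Plk2 did not pass against PD032 (edgeR adjusted p = 0.4). In FGF2/Activin, which has the other naming style, Pmaip1 had 61.7, 57.4 and 62.3 CPM. Aurka inh was 0.3 above that on the log2 scale (edgeR adjusted p = 0.025). Bbc3 did not pass against FGF2/Activin (log2 difference -0.07, edgeR adjusted p = 0.45), while Cdkn1a was 1.82 above it (edgeR adjusted p = 1.4e-12).

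The summed level of basement membrane and integrin genes fell, while single basement membrane genes moved both ways. Of 16 genes of basement membrane and integrins, 11 were lower and 4 higher, beside 29.5% and 28.9% of all genes, and their summed level was 2950 to 3170 CPM in 2iLif and 1630 to 1950 CPM in Aurka inh. Lama1, the laminin chain of the first embryonic basement membranes, fell from 194, 192 and 179 CPM to 6.37, 6.86 and 4.58 CPM (log2 fold change -4.99, SE 0.12, edgeR adjusted p = 3.1e-14). Its linker nidogen (Nid1) fell from 284, 292 and 272 CPM to 27.4, 41.5 and 21 CPM, and perlecan (Hspg2) from 263, 276 and 224 CPM to 62.7, 40.2 and 50.6 CPM. No library of one group overlapped with the other in these 3 genes. Lamc1 and Nid2 fell by 1.47 and 0.38 on the log2 scale. Lamb1, Lama5, Col4a1 and Col4a2 were the members that rose, by 0.91, 0.43, 0.72 and 0.77. The basement membrane genes that fell were thus Lama1, Lamc1, Nid1, Nid2 and Hspg2, and the other lower members were integrin genes and Dag1. Lama1 was also lower than in PD032, by -1.68, and than in the combination, by -1.87 (edgeR adjusted p = 3.1e-08 and 2.8e-08).

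Of 20 genes of polarity, lumen and junctions, 8 were higher and 8 lower, beside 28.9% and 29.5% of all genes. Podxl, which encodes podocalyxin of the luminal surface, rose from 21.4, 18.7 and 18.9 CPM to 157, 86 and 149 CPM (log2 fold change 2.73, SE 0.23, edgeR adjusted p = 3.6e-08), with replicate 2 lowest. The tight junction gene Cldn6 rose from 4.29, 5.21 and 5.08 CPM to 56.8, 38.8 and 59.6 CPM, and the adhesion gene Epcam from 54.9, 49 and 56.5 CPM to 186, 189 and 205 CPM. Cldn4 and Tjp3, also of tight junctions, and the polarity gene Crb3 fell by 1.23, 1.63 and 1.48 on the log2 scale, so members of the same complexes moved apart. Among actin and focal adhesion genes, of which 5 of 13 tested were higher and 4 lower, Zyx, encoding zyxin, rose from 7.6, 7.24 and 6.51 CPM to 93.4, 73.1 and 91.4 CPM (log2 fold change 3.59, SE 0.12, edgeR adjusted p = 5.5e-13). Zyx was also above PD032 by 3.12 and above the combination by 2.78 (edgeR adjusted p = 3.9e-12 and 4e-11). Podxl, by contrast, was lower than in PD032 by -1.51 and 2.14 above the combination (edgeR adjusted p = 1.1e-05 and 1.3e-06). The intermediate filament gene Vim fell from 605, 616 and 627 CPM to 114, 134 and 116 CPM.

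Glycolytic genes rose in part. Of 17 tested, 10 were higher and 3 lower, beside 28.9% and 29.5% of all genes, with a median log2 fold change of 0.4. Ldha, which turns pyruvate into lactate, had 516, 474 and 613 CPM in 2iLif and 1560, 1350 and 1690 CPM in Aurka inh, a log2 fold change of 1.52. The lactate exporter Slc16a3 rose from 18.6, 16.4 and 29.2 CPM to 180, 132 and 178 CPM. Hk1, a hexokinase gene listed beside Hk2, went the other way and fell from 180, 182 and 187 CPM to 47.1, 52.2 and 43.1 CPM. The sugar transporter gene Slc2a3, which the list does not hold, fell from 913, 876 and 1010 CPM to 218, 219 and 177 CPM. Against PD032, Ldha was 0.85 higher, Slc16a3 lower by -1.03 and Hk1 lower by -1.59 (edgeR adjusted p = 9.3e-06, 3.7e-05 and 4.9e-10). The stress gene Ddit4, an inhibitor of mTORC1, rose from 191, 176 and 207 CPM to 717, 631 and 720 CPM, while 7 of 14 genes of the ATF4 and unfolded protein list were higher and 3 lower. Among 19 cholesterol genes, 8 were higher and 5 lower with no change over 0.63 on the log2 scale in those that passed. Of 13 listed genes of the mitochondrial genome, 5 had no count in any of the 6 libraries, for reasons not known. Of the 7 tested, 3 were higher (mt-Nd1, mt-Nd2 and mt-Nd6). None of these calls held without replicate 2 of Aurka inh (edgeR adjusted p = 0.12, 0.29 and 0.19) or without replicate 1 of 2iLif (edgeR adjusted p = 0.063, 0.11 and 0.069). The calls of mt-Nd2 and mt-Nd6 were also lost without replicate 2 of 2iLif (edgeR adjusted p = 0.077 and 0.069).

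Regulators of DNA methylation moved in both directions, with 2 of 8 higher and 4 lower, beside 28.9% and 29.5% of all genes. Beside the de novo enzyme genes Dnmt3a and Dnmt3b of the formative list, Dnmt3l, their cofactor, rose from 34.7, 36.1 and 34.4 CPM to 205, 313 and 211 CPM (log2 fold change 2.79, SE 0.16, edgeR adjusted p = 5.1e-10). Replicate 2 was the highest of these, far from any 2iLif library. Tet2, which oxidises methylcytosine, fell from 120, 114 and 96.1 CPM to 17.6, 17.6 and 13.3 CPM, and Tet1 from 642, 655 and 510 CPM to 316, 240 and 256 CPM. The third enzyme, Tet3, rose from 4.94, 4.06 and 3.71 CPM to 20.3, 12.2 and 18.5 CPM. Uhrf1, which brings the maintenance enzyme to replicated DNA, fell by 0.67. Tet1 and Tet3 were lower than in PD032, by -0.85 and -1.06 (edgeR adjusted p = 6e-05 and 1.3e-05), and Dnmt3l was 0.36 above it, which passed only with the replicate block (edgeR adjusted p = 0.056 and, with it, 5e-06). Methylation itself was not measured.

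The genes with the largest fold changes were picked for their size, so their tests add nothing to that choice. Enpp2, encoding the lipid enzyme autotaxin, had 0.13, 0.0676 and 0.195 CPM in 2iLif and 84.5, 58.3 and 87.8 CPM in Aurka inh, a log2 fold change of 9.12. Hs6st2, a heparan sulfate sulfotransferase, rose from 0.325, 0.541 and 0.586 CPM to 42.2, 30 and 42.8 CPM, and Crabp2, a binding protein of retinoic acid, from 0.585, 0.744 and 0.521 CPM to 25.9, 28.9 and 31.4 CPM. The matrix protease gene Mmp25 had 2 counts in 2iLif against 594, a ratio per total of 237 (95% interval 65.3 to 1960), and Ccdc194 had 2 against 1018, a ratio of 406 (95% interval 112 to 3360). Bcl11a, Pkdcc and Tmem154 rose by 5.2, 5.14 and 5.08 on the log2 scale. In the other direction, the riboflavin transporter gene Slc52a3 had 793 counts in 2iLif and 2 in Aurka inh, 497-fold higher in 2iLif (95% interval 137 to 4110). Xaf1, an interferon-induced gene, fell from 67.1, 69.2 and 71.6 CPM to 0.364, 0.378 and 0.052 CPM, and Mras, a Ras-like GTPase, from 48, 48.6 and 53.5 CPM to 0.091, 0.441 and 0.104 CPM. Kbtbd11 fell by 6.12, Trpm1 fell by 6.1, Nkx6-2 fell by 7.23, and Ly6a, a surface antigen, fell by 6.84 on the log2 scale. Kbtbd11 was lower than in PD032 by -5.47 (edgeR adjusted p = 1.2e-13), while Slc52a3 and Nkx6-2 did not pass against PD032 (edgeR adjusted p = 0.29 and 0.32). Mean levels in PD032 and FGF2/Activin were 1.18 and 2.89 CPM for Xaf1 and 2.63 and 0.215 CPM for Mras. They were 43.5 and 45.3 CPM for Enpp2, 102 and 20.4 CPM for Crabp2, and 37.9 and 51.6 CPM for Bcl11a. Hs6st2 and Ccdc194 were low in PD032, at 3.32 and 0.928 CPM. Large changes from 2iLif in several of these genes were thus shared with other conditions.

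Some genes set Aurka inh apart from every other condition. They were chosen because they passed in one direction against each of the other 4 groups, so the values are a description, and the 4 contrasts share the Aurka inh libraries. Wnt8a, a Wnt ligand, had 28.2, 28.3 and 27.6 CPM in Aurka inh, 0.195, 0.135 and 0.0651 CPM in 2iLif, 0.594, 0.483 and 0.686 CPM in PD032, 5.06, 5.27 and 6.99 CPM in the combination and 1.7, 1.6 and 1.41 CPM in FGF2/Activin. The next highest libraries, those of the combination, stayed far below the Aurka inh level. The imprinted gene Peg10 had 318, 264 and 272 CPM in Aurka inh against 46.3, 49.8 and 41.4 CPM in 2iLif, and was 2.67 above PD032 and 1.65 above the combination on the log2 scale. Slit3, a guidance ligand, Spn, a surface sialoprotein, and Zfp677, a zinc finger gene, were higher than 2iLif by 3.31, 4.12 and 4.38 on the log2 scale and higher than PD032 by 1.82, 2.03 and 2. Ifitm3, an interferon-inducible membrane protein, was lowest in Aurka inh, at 20.1, 23.7 and 17.9 CPM against 118, 126 and 130 CPM in 2iLif, with -1.63 against PD032 and -1.14 against the combination. Dock5, an activator of Rac, had 31.2, 27.4 and 24.8 CPM against 91.3, 94.9 and 85.9 CPM in 2iLif. Ppp1r9b, S100a10 and Wfdc2 were lower than in 2iLif by -2.7, -2.2 and -2.02.

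**Figure D4:**
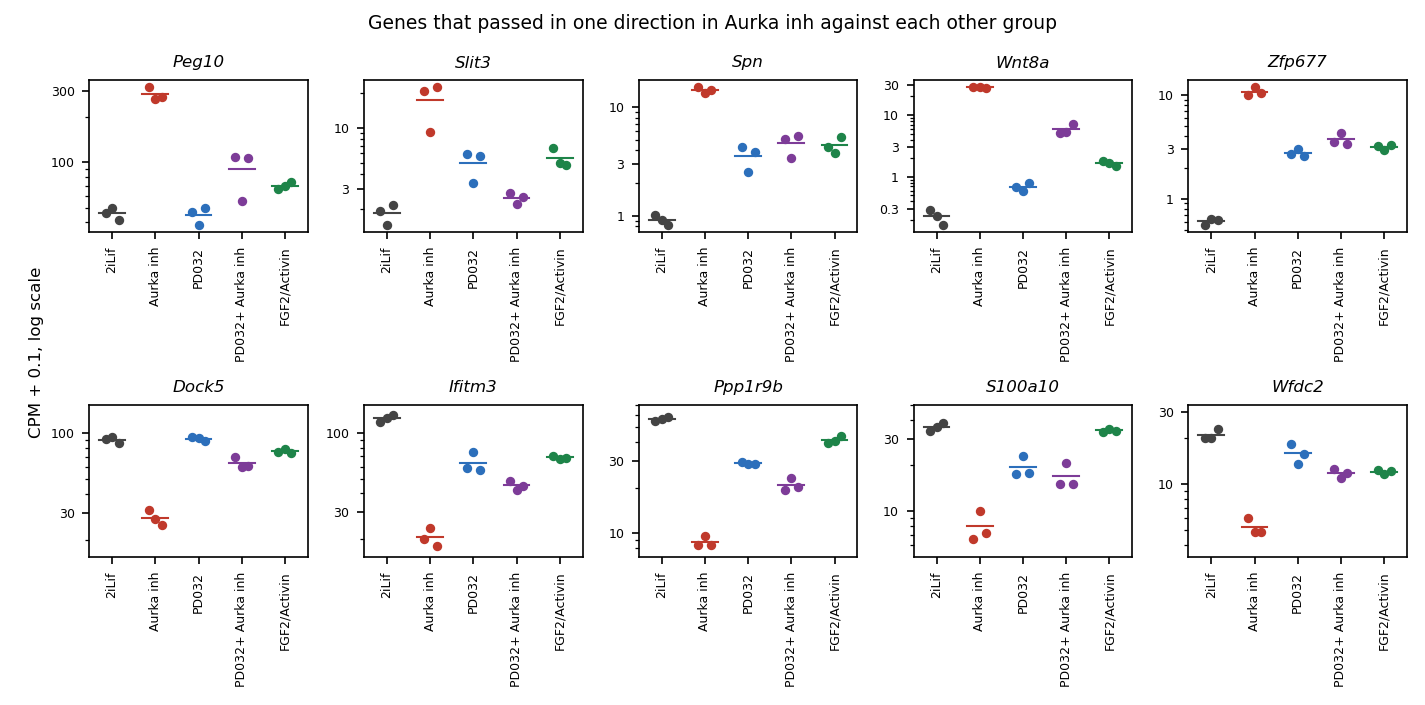
CPM plus 0.1 on a log axis in all 5 conditions, 1 point per library and a line at each group mean, for 10 genes that passed in one direction in Aurka inh against each other group. Wnt8a at 27.6 to 28.3 CPM lies above every other library, and Dock5 at 24.8 to 31.2 CPM lies below every other library.

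Markers of other cell types and states were low or mixed, and their part in the results above was not tested. Their counts stand beside 28.9% of all genes higher and 29.5% lower. Of 11 primitive endoderm markers 5 were tested, 3 lower and 1 higher; their summed level was 6.12 to 7.41 CPM in 2iLif and 2.45 to 3.59 CPM in Aurka inh, and Afp and Ttr were at 0. Of 11 mesoderm and streak markers 8 were tested, 4 higher (T, Wnt3, Fgf8 and Mixl1) and 1 lower, with summed levels of 19 to 21.8 and 20.2 to 27.8 CPM and Msgn1 and Hand1 at 0. Mixl1 did not pass in DESeq2 (adjusted p = 0.064). The lower one was Gsc, an organiser gene, with 46 counts in 2iLif and 1 in Aurka inh (57.7-fold, 95% interval 9.85 to 2330). Of 10 neuroectoderm markers 5 were tested, 2 of which were higher: Nes rose from a mean of 7.31 CPM to 39 CPM and the Notch ligand gene Dll1 from 0.065, 0.271 and 0.26 CPM to 8.91, 7.49 and 8.74 CPM. Sox1, the earliest neural marker of that list, fell from a mean of 2.38 CPM to 0.109 CPM. The summed neuroectoderm level was 8.9 to 11.4 CPM in 2iLif and 35.2 to 60.6 CPM in Aurka inh, with Six3 at 0.

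Trophoblast markers summed to 90.1 to 94.4 CPM in 2iLif and 16.2 to 23.1 CPM in Aurka inh. Of 6 tested, 3 fell and 1 rose, beside 29.5% and 28.9% of all genes. On the log2 scale the fall was largest in the keratin gene Krt8 (30.6, 31.5 and 34.1 CPM against 1.23, 1.01 and 0.884 CPM). Tfap2c, a transcription factor gene that naive ES cells also express, fell more in CPM, from a mean of 53.7 CPM to 11.4 CPM. Krt18, the partner keratin of Krt8, rose from a mean of 3.29 CPM to 4.64 CPM (log2 fold change 0.51, edgeR adjusted p = 0.011). The Krt18 groups overlapped, and the call was lost without replicate 3 of Aurka inh (edgeR adjusted p = 0.067). The defining factors Cdx2 and Gata3 did not pass (edgeR adjusted p = 0.45 and 0.46). Fibroblast markers summed to 106 to 114 CPM in 2iLif and 72.9 to 78 CPM in Aurka inh, with 1 of 5 tested higher and 2 lower. Fbln1, a matrix gene, fell from a mean of 104 CPM to 57.8 CPM and Thy1, a surface glycoprotein, rose from 2.15 CPM to 15.3 CPM, while Postn and S100a4 were at 0. The 7 markers of cells that resemble the 2-cell embryo summed to at most 0.126 CPM in any of the 6 libraries, and none was tested. Of 10 tested germline genes, 8 were higher and none lower, beside 28.9% of all genes higher, among them Sycp3, of the meiotic chromosome axis, which rose from a mean of 4.12 CPM to 16.4 CPM, Hormad1 and Taf7l.

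Positions on the chromosomes added a pattern found after the data were seen. Of 551 tested genes of the X chromosome, 245 (44.5%) were higher and 108 (19.6%) lower, against 28.3% and 29.9% of 14632 autosomal genes, and the medians of the log2 fold changes were 0.27 and 0.01. Taken per library over 458 X genes, the median log2 CPM difference from the 2iLif mean was 0.2 to 0.227 in Aurka inh and -0.013 to 0.009 in the 2iLif libraries themselves. It was 0.175 to 0.194 in the combination, 0.125 to 0.176 in PD032 and 0.053 to 0.086 in FGF2/Activin. The Aurka inh libraries were the highest, next to those of the combination, and FGF2/Activin shares the naming style of 2iLif. Chromosome 16 lay on the other side, with 94 of 449 genes higher (20.9%) and 160 lower (35.6%), and library medians of -0.122 to -0.082 in Aurka inh and -0.134 to -0.116 in FGF2/Activin.

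**Figure D5:**
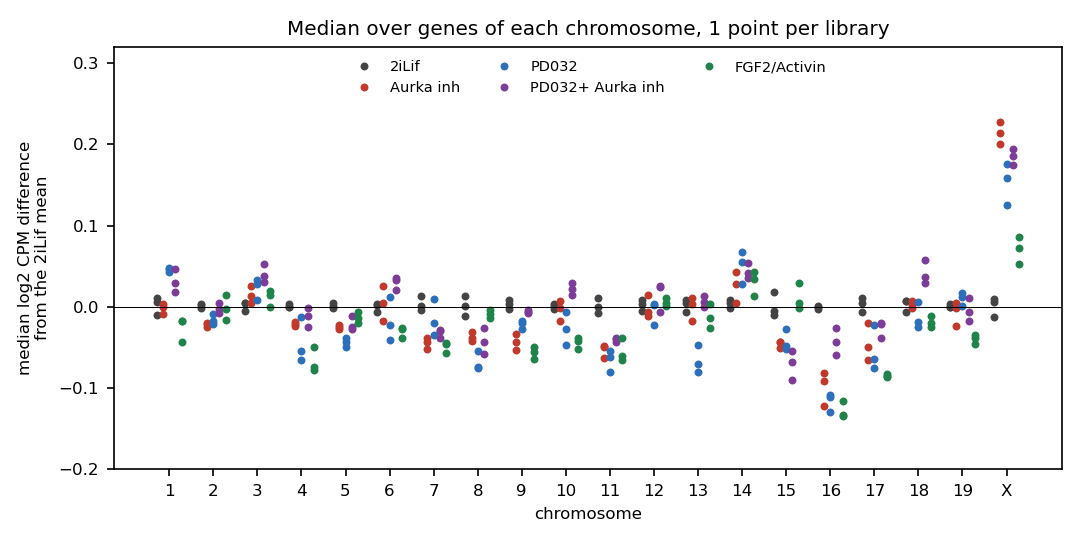
Median log2 CPM difference from the 2iLif mean (y axis) over the genes of each chromosome (x axis), 1 point per library of all 5 conditions. The X chromosome stands highest, at 0.2 to 0.227 in Aurka inh, and chromosome 16 lowest in most groups.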

How the data were processed

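RNA from ES cells in gel was selected for poly(A) and sequenced as directional libraries, per the labels' protocols; samples had an RNA integrity number above 7. The authors deposited a table of raw counts per gene, used for every value here; a deposited table of normalized log2 values was not used. The submitters' processing notes name STAR, mm10 and DESeq2. How reads were counted, against which annotation and with which strand setting, is not given in the sources used here, nor is any version, so overlapping or antisense transcripts may add to a gene's count. Columns were matched to samples by name, and 0 columns belonged to no sample.

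Identifiers of 49326 genes matched GENCODE M21. Genes were kept by filterByExpr of edgeR 4.0.16 (R 4.3.3), scaled by TMM, and fitted with the quasi-likelihood model over all 15 libraries with 1 term per group (limma 3.58.1 was loaded; prior degrees of freedom 5.73). A gene that passed this filter only through its high group had to differ, so counts over list members are descriptions. P-values were adjusted by Benjamini-Hochberg over all tested genes with a threshold of 0.05. The log2 CPM used a prior count of 2. Below 4 counts in a group a ratio of counts per total with a 95% interval is given, and at 0 a lower bound against 3 counts. Intervals and limits cover counting error only. Replicates differed by more than sampling noise in every pair (chi-squared per degree of freedom 6.16 to 17.4 in Aurka inh, 1.31 to 6.38 in 2iLif).

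The comparison, the 30 lists (418 genes) and the rule for naming genes were chosen with earlier results of these data known. The rule took protein-coding genes with the largest fold changes (10 per direction, mean of at least 10 CPM in the higher group, no overlap), up to 4 members per list with the largest change that passed, 5 per direction by CPM difference, 5 per direction that passed against each other group, and a fixed set of known markers. Other list members printed, and the chromosomes and RNA classes, were chosen after their values were seen.

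On simulated counts for 14752 genes, the fit recovered 53.8% of genes changed 1.5-fold, 70.8% of those changed 2-fold and 92.2% of those changed 4-fold, with 9 false calls among 14558 unchanged genes. Only 65, 65 and 64 genes were changed by these folds, and each gene had the same spread in every library. In the data 58.4% of genes passed and the spread differed between groups. The simulation therefore checks the code and cannot give the rate of false calls or of recovery in this comparison. Within the inhibitor groups, deviations of same-numbered libraries of Aurka inh correlated across genes with those of PD032 (r = 0.331, 0.483 and 0.196) and of the combination (r = 0.33, 0.407 and 0.17), so replicate numbers were taken to pair them, and a block was added where it changed a printed call. Alternatives covered scaling, filter, DESeq2 1.42.0, limma-voom with group weights, the 6 libraries alone, coding genes alone, a replicate block, leaving out each library and a test against a fold of 1.5.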

Additional observations from a re-analysis of the deposited data

How the results depend on the processing

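The counts of genes that passed, 4398 higher and 4490 lower, stayed within 1.5 times under every alternative except the test against a fold of 1.5, which called 1804 higher and 1606 lower. Leaving out 1 library gave 3960 to 4363 higher and 3997 to 4545 lower. The share of higher genes among calls was 49.5% and reached 55.2% with library size alone. Over the named genes and alternatives, 2368 values kept their call, 74 no longer passed, 7 newly passed and 0 changed direction. Besides Egr1, Cep192, Pou5f1, Mdm2 and the mitochondrial genes, calls on Mixl1, Dlk1, Pdgfra, Krt18 and Nqo1 were lost in some fits with 1 library left out. Many named genes with small changes did not pass against a fold of 1.5, among them Aurka, Plk1, Axin2, Cdkn1a, Dusp6, Etv4 and T. The same held for Ajuba, Bora, Cep192, Bub1, Ube2c, Pttg1, Anln, Tyms, Egr1, Mixl1 and Krt18.

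Replicate numbers did not pair Aurka inh with 2iLif: deviations of same-numbered libraries correlated with r = 0.0654, 0.000555 and 0.0125 across genes, and replicate 2 of Aurka inh matched best with replicate 3 of 2iLif (r = 0.0495). With the replicate block 4666 genes were higher and 4756 lower. Between the inhibitor groups, where the numbers pair, a block in the 9 inhibitor libraries gave 4033 higher and 4615 lower against PD032 (2482 and 3237 without it) and 3634 and 3547 against the combination (1944 and 2086 without it), a setting chosen after seeing the data; beyond the calls given with it, it changed no other printed call. Depth limits genes near 0 in one group, such as Fgf5 and Wnt3, to ratios with wide intervals.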

Other observations

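Classes of noncoding and short RNA, chosen after the data were seen, also differed. Of 837 tested long noncoding genes 265 (31.7%) were higher and 94 (11.2%) lower, and of 756 tested pseudogenes 110 (14.6%) were higher and 209 (27.6%) lower, against 28.9% and 29.5% of all genes. Sums over lincRNA and antisense genes were 3480 to 3570 CPM in 2iLif and 3160 to 3380 CPM in FGF2/Activin. They were 4900 to 5380 CPM in Aurka inh, 4580 to 4990 CPM in PD032 and 5030 to 5160 CPM in the combination. Genes of small nucleolar and Cajal body RNA, which guide the modification of ribosomal and spliceosomal RNA and mostly lie in introns, summed to 99.7 to 123 CPM in 2iLif and 175 to 189 CPM in Aurka inh, and 33 of 62 tested were higher and none lower. Their sums were 112 to 129 CPM in PD032, 146 to 166 CPM in the combination and 74 to 82.4 CPM in FGF2/Activin. Gm26917, a noncoding gene, rose from 557, 597 and 706 CPM to 1560, 1620 and 1450 CPM. It was 0.41 above PD032 on the log2 scale (edgeR adjusted p = 0.002). Against the combination it was 0.11 higher (edgeR adjusted p = 0.41, and 0.025 with the replicate block). In FGF2/Activin it had 805, 858 and 661 CPM, and in PD032 1250, 1100 and 1130 CPM. Gm26917 and the lincRNA and antisense sums thus split by naming style with no overlap, as did sums of histone cluster genes and of GENCODE TEC genes. Such a split cannot be told apart from a batch. The small nucleolar sums did not split so, since those of PD032 and 2iLif overlapped. Of 83 cytoplasmic ribosomal protein genes, 23 were higher and none lower, beside 28.9% and 29.5% of all genes. Their sums overlapped, at 50400 to 53700 CPM in 2iLif and 49800 to 62400 CPM in Aurka inh. Libraries were poly(A)-selected, and the part of RNA quality or of intron reads in these sums was not tested.

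Imprinted genes, expressed from the copy of one parent, mostly rose: 10 of 14 tested were higher and 2 lower, beside 28.9% and 29.5% of all genes, with a median log2 fold change of 0.84. Beside Peg10, Snrpn rose from 38.3, 38.3 and 38.8 CPM to 125, 144 and 143 CPM, and the maternal noncoding gene Meg3 from a mean of 157 CPM to 397 CPM. Plagl1, a zinc finger factor, fell from 38, 37.9 and 33.6 CPM to 2.09, 3.71 and 1.51 CPM (log2 fold change -3.94, SE 0.25, edgeR adjusted p = 1.4e-09). Paternally and maternally expressed members rose together, and allelic counts were not analysed here.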
